A study of Homo sapiens with 8 samples.

Results

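The 10 genes described here belong to the ATR branch of the DNA damage checkpoint or, for CHEK2, to its ATM branch: the kinase ATR and its partner ATRIP, the ATR activator TOPBP1, RAD17, RAD9A and HUS1 of the clamp and its loader, the adaptor CLSPN, and the kinases CHEK1, CHEK2 and WEE1. They were chosen by symbol from the 80311 rows of the gene count table, and each symbol matched 1 row. Total RNA was sequenced from U2OS, a human osteosarcoma line, in 8 libraries that made up 4 groups of 2. U2OS-Flp-In-TREx cells (Flp-In), kept in Zeocin and blasticidin, and U2OS AiD-DiVA AsiSI-ER cells (AsiSI), kept in G418, were each transfected with control siRNA (siNC) or with siRNA to MEPCE (siMePCE), which encodes the capping enzyme of 7SK RNA, at 0 and 48 h and lysed at 96 h. The AsiSI cells carry a restriction enzyme fused to the oestrogen receptor's ligand-binding part, and all 4 AsiSI libraries came from cells that had 300 nM 4-hydroxytamoxifen (4-OHT) for the last 4 h to cut DNA at AsiSI sites. For Flp-In cells no 4-OHT is stated, and Zeocin is itself a DNA-breaking antibiotic, so line, 4-OHT and selection drug cannot be told apart between the lines. The labels do not say whether the libraries of a group came from separate cultures, so p-values reflect the spread of these libraries alone, which may be technical.

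Stalled replication forks and resected breaks expose single-stranded DNA, which the protein RPA coats and to which ATRIP brings ATR. RAD17, within a clamp loader, places the ring of RAD9A, RAD1 and HUS1 (the 9-1-1 clamp) at the junction with double-stranded DNA, and TOPBP1 binds the clamp and switches ATR on. ATR then phosphorylates CHEK1 with the help of claspin (CLSPN). CHEK2 is the matching kinase of the ATM branch, which answers double-strand breaks. CHEK1 and CHEK2 act on the CDC25 phosphatases, and WEE1 puts an inhibitory phosphate on cyclin-dependent kinases. Most of this regulation is by phosphorylation and protein turnover, which RNA counts do not measure.

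Library totals ran from 41431776 to 53695626 counts. MEPCE counts ranged from 1405 to 1712 with siNC and from 102 to 264 with siMePCE. The mitochondrial share of counts ranged from 5.23% to 5.91% with siNC and from 8.24% to 10.55% with siMePCE. A fit without mitochondrial, 7SK, 7SL and ribosomal RNA rows left all 50 results for single genes called or not called as before. Any other part of this share in the results was not tested. VIM, SPARC, COL1A1 and RUNX2, of the mesenchymal and osteoblast markers, had mean levels of 893, 397, 74.7 and 36.2 CPM (counts scaled by library size and by the trimmed mean of M values, TMM), while ALPL had 0.687 and COL1A2 0.374. The leukocyte marker CD3E had at most 6 counts in any library. PTPRC had a mean of 3.86 CPM, with an overlapping gene at 11.6 times its counts. The epithelial markers CDH1, EPCAM and KRT5 had 4.01, 4.47 and 0.465 CPM. KRT5 was low in every library, from 0.0414 to 1.14 CPM. Overlapping genes held 3.81, 4.37 and 26.4 times the counts of EPCAM, KRT5 and COL1A2. Several markers moved with knockdown by the edgeR test used for the 10 genes, and their part in the results was not tested. VIM fell 1.40-fold and 1.38-fold in Flp-In and AsiSI, COL1A1 2.62-fold and 1.29-fold, and KRT5 5.34-fold and 4.33-fold, while CDH1 rose 2.18-fold and 1.91-fold. SPARC and RUNX2 fell 1.38-fold and 1.23-fold and PTPRC rose 2.0-fold in Flp-In, and EPCAM rose 1.63-fold in AsiSI. Every row of the table runs from the start to the end of a gene, so unspliced RNA counts too. Rows nested in another row never had more counts than it in any library, in 3520 of 3520 pairs on the same strand and 6889 of 6889 on opposite strands. From this, a read seems to have been counted for each gene it overlaps, on either strand, so levels of overlapping genes are not separate measurements.

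In hg19, 3 of the genes lie on chromosome 3: ATR (142167849 to 142297575, minus strand), TOPBP1 (133317019 to 133381224, minus) and ATRIP (48488114 to 48509044, plus). On chromosome 11 lie CHEK1 (125495058 to 125546150, plus), WEE1 (9595217 to 9615004, plus) and RAD9A (67085342 to 67165881, plus). CLSPN is on chromosome 1 (36185819 to 36235579, minus), RAD17 on chromosome 5 (68665120 to 68710628, plus), HUS1 on chromosome 7 (48001479 to 48019212, minus) and CHEK2 on chromosome 22 (29083731 to 29138410, minus).

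All 10 genes were expressed in every library, with 463 to 7540 counts each. Per kb of gene span, the mean over the 8 libraries was 3.77 CPM for HUS1, 3.13 for WEE1, 2.24 for TOPBP1, 1.71 for CLSPN and 1.02 for RAD17. It was 0.901 for CHEK1, 0.743 for ATRIP, 0.647 for ATR, 0.364 for RAD9A and 0.320 for CHEK2. The span includes introns, so this scale gives no order of mature transcripts.

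**Figure D1:**
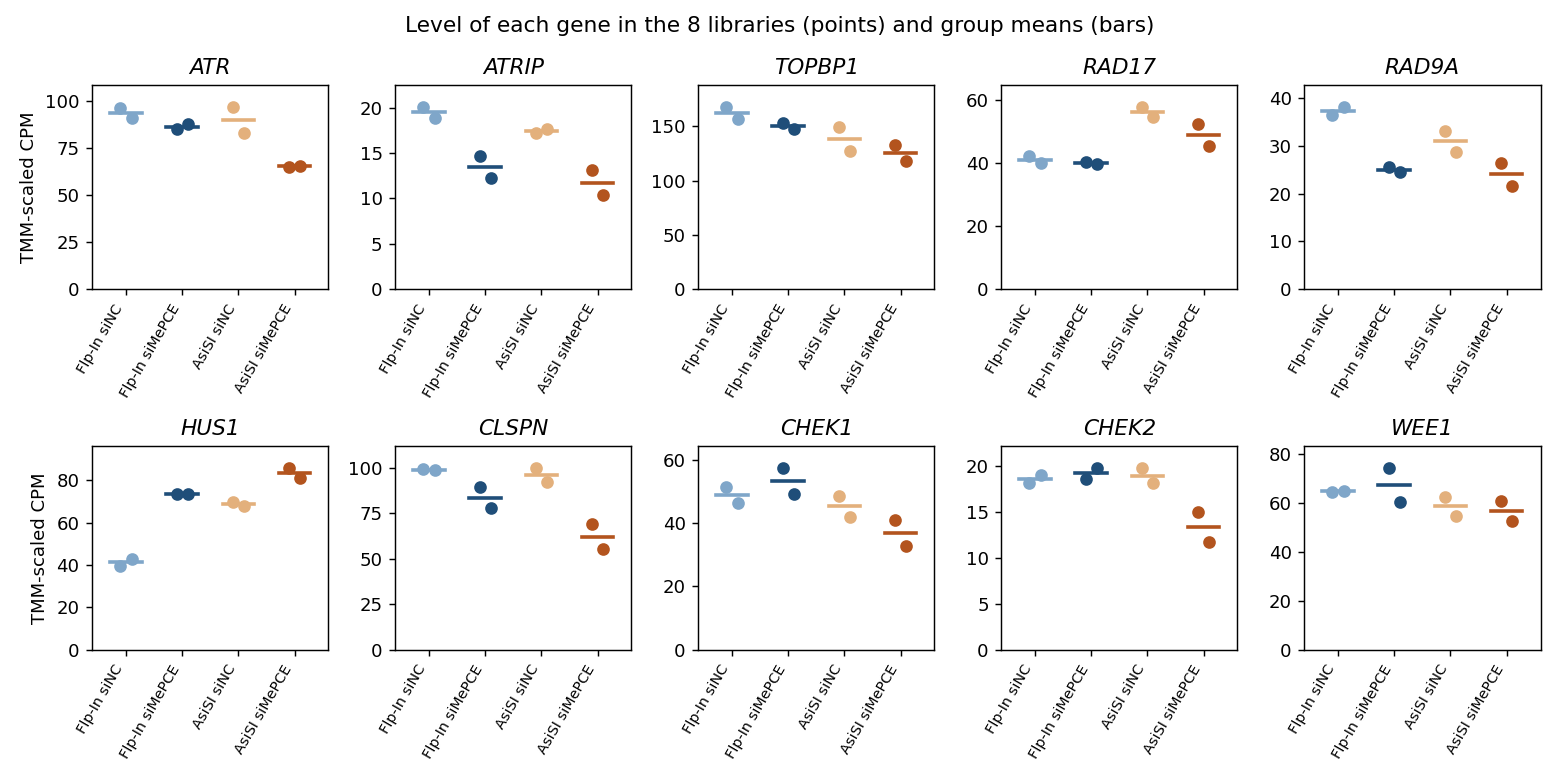
Level of each of the 10 genes in TMM-scaled CPM (vertical axes, from 0, each panel with its own scale) in the 4 groups (horizontal axis); points are the 8 libraries and bars the mean of 2. HUS1 stood at 39.8 and 43.1 CPM in Flp-In siNC and between 68.0 and 86.0 CPM in the other 6 libraries, whereas WEE1 overlapped between siNC and siMePCE in each line.

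Knockdown of MEPCE was compared with control siRNA in each line. In Flp-In, HUS1 rose 1.77-fold, RAD9A fell 1.49-fold and ATRIP fell 1.44-fold, and the other 7 genes did not pass the test. In AsiSI, HUS1 rose 1.21-fold, and CLSPN, ATRIP, CHEK2, ATR and RAD9A fell 1.55-fold, 1.48-fold, 1.42-fold, 1.38-fold and 1.28-fold. TOPBP1, RAD17, CHEK1 and WEE1 passed in neither line. Tests were edgeR's quasi-likelihood test over 43321 rows with Benjamini-Hochberg adjustment, called at an adjusted p under 0.05.

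These shares lie beside a broad background of changed genes. In Flp-In 1 of 10 was called higher and 2 lower, where 18.1% of all rows tested were called higher and 22.7% lower. In AsiSI 1 was called higher and 5 lower, where 16.8% and 21.3% of rows were. Of 17341 protein-coding rows, 3543 were called higher and 5925 lower in Flp-In, and 2924 higher and 6062 lower in AsiSI. The median log2 fold change of the 10 genes was -0.07 in Flp-In and -0.33 in AsiSI, against -0.10 and -0.14 for protein-coding rows and 0.03 and 0.04 for all rows. Upper quartile scaling moved the median of all rows to 0.297 in Flp-In and 0.251 in AsiSI, and then 5 of the 10 were called higher and 1 lower in Flp-In, and 1 higher and 3 lower in AsiSI. Directions of small changes below are therefore relative to the scaling used.

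**Figure D2:**
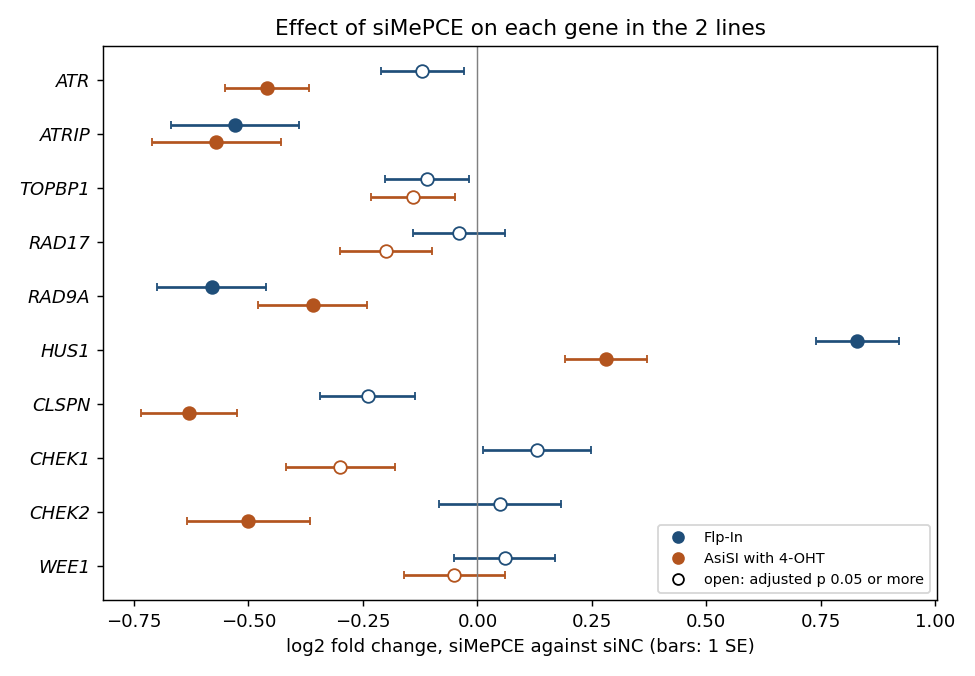
Log2 fold change of each gene after siMePCE (horizontal axis) in Flp-In and in AsiSI with 4-OHT; bars are 1 SE and open points have an adjusted p of 0.05 or more. HUS1 is the only point to the right of 0 among those called, and RAD9A and ATRIP are the genes called lower in both lines.

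Promoter windows are shown for the 2 genes called lower in both lines, ATRIP and RAD9A. CLSPN, which fell in AsiSI, and TOPBP1, which passed in neither line, were added after their values were seen. These 2 are also the genes with E2F letters, so the windows shown are no fair sample. Not shown are ATR and CHEK2, which also fell in AsiSI, and CHEK1 and RAD17, which also passed in neither line. The ATR window held no match. RefSeq windows (GRCh38.p14, a build other than the hg19 of the counts) run from 250 bases before to 50 after a start and were present for 8 of the 10 genes. They were searched on both strands for E2F letters (TTTCCCGC, TTTGGCGC, TTTCGCGC or TTTGCCGC), the cell cycle element CHR (TTTGAA, and likewise TTTAAA), the NF-Y letters CCAAT, the TATA box TATAAA and the cyclic AMP element TGACGTCA. Capitals mark every match, and sequences read along the gene's strand.
CLSPN (chr1:35769929-35770228, minus strand): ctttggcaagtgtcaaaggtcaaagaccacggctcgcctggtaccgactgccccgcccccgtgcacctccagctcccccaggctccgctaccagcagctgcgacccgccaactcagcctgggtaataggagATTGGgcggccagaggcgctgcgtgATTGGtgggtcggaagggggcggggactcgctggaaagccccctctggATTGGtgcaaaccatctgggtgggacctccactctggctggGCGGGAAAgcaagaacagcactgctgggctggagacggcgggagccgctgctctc
TOPBP1 (chr3:133661892-133662191, minus strand): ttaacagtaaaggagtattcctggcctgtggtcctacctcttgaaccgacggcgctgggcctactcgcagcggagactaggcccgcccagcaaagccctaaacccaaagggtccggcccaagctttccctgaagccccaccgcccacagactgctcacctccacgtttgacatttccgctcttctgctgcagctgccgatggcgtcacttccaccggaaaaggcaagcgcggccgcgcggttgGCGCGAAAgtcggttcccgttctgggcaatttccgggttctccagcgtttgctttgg
ATRIP (1 of 2 windows, chr3:48446487-48446786, plus strand): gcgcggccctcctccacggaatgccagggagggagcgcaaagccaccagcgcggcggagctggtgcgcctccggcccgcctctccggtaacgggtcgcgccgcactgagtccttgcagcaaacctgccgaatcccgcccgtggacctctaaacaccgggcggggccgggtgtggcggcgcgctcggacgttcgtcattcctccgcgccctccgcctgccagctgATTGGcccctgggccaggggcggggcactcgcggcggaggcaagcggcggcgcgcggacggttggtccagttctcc
RAD9A (chr11:67391736-67392035, plus strand): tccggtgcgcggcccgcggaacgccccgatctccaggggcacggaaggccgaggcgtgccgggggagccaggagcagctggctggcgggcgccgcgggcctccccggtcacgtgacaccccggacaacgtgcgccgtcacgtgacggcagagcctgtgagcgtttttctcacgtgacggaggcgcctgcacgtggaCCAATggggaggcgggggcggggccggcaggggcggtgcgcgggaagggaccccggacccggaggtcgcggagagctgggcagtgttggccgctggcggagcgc
CLSPN holds the reverse complement of TTTCCCGC, first base 5 bases before the start, and CCAAT in reverse at -119, -94 and -46. TOPBP1 holds the reverse complement of TTTCGCGC at -7 and no CCAAT. ATRIP holds CCAAT in reverse at -26 and RAD9A in forward direction at -54. E2F letters were present for these 2 of 8 genes, CLSPN and TOPBP1, and in 3.31% of all 35116 windows. CCAAT was in at least 1 window of 6 of 8 genes and in 34.6% of all windows. CHR letters were present for 1 of 8 genes, RAD17, and in 24.0% of all windows. The TATA box was present for 1 of 8 genes, also RAD17, and in 11.5% of all windows. The cyclic AMP element had no match in the windows of these genes and was in 1.85% of all windows. Shares of genes and of windows differ in unit, because a gene had up to 3 windows. A match is a run of letters and not a measured binding site. Starts of windows were not matched to starts of the counted rows. The RAD9A row spans 80.5 kb and holds other genes, so its window need not lie at the row's start.

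ATR, the apical kinase, went from 96.4 and 91.2 CPM with siNC to 85.3 and 87.7 with siMePCE in Flp-In. The AsiSI libraries went from 97.0 and 83.1 CPM to 65.1 and 65.7, which left the groups apart by more than the spread within either. ATR fell in AsiSI (log2 fold change -0.46, SE 0.092, edgeR adjusted p = 0.000421), while the value in Flp-In was -0.12 (SE 0.0916, adjusted p = 0.325). The difference between the lines was not called (-0.34, SE 0.13, adjusted p = 0.155). An opposite-strand gene that lies 97.6% inside ATR, ENSG00000295506, had 0.178 times its counts.

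ATRIP, which carries ATR to RPA, had the lowest count of the 10 in any library, 463, and at most 929. Flp-In levels were 20.1 and 18.9 CPM with siNC, then 14.7 and 12.3 with siMePCE. AsiSI levels were 17.2 and 17.7 CPM, then 13.1 and 10.4. All 4 siMePCE libraries lay below all 4 siNC libraries. ATRIP fell in Flp-In (-0.53, SE 0.14, edgeR adjusted p = 0.00438) and in AsiSI (-0.57, SE 0.141, adjusted p = 0.00295). The call was lost in Flp-In without Flp-In siMePCE replicate 2 (-0.41, adjusted p = 0.0824) or with upper quartile scaling (-0.27, 0.0942), and in AsiSI without AsiSI siMePCE replicate 2 (-0.42, adjusted p = 0.0554). TREX1, an exonuclease gene on the same strand and wholly inside the ATRIP row, had 0.103 times its counts. It went from 77 and 74 counts to 51 and 17 in Flp-In and from 148 and 145 to 40 and 40 in AsiSI. With TREX1's counts taken away, ATRIP had -0.47 in Flp-In (adjusted p = 0.012) and -0.42 in AsiSI (adjusted p = 0.0267).

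TOPBP1, the activator of ATR, was the gene with the most counts, 5249 to 7540. With siNC it measured 168 and 157 CPM (Flp-In) and 149 and 127 CPM (AsiSI). With siMePCE it measured 153 and 148 CPM (Flp-In) and 133 and 118 CPM (AsiSI). The groups were apart in Flp-In and overlapped in AsiSI. The log2 fold changes of -0.11 (SE 0.0916, edgeR adjusted p = 0.366) and -0.14 (SE 0.0918, adjusted p = 0.263) did not pass.

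The 9-1-1 clamp is a ring of 1 copy each of RAD9A, RAD1 and HUS1, and its genes moved apart. In Flp-In, HUS1 went from 39.8 and 43.1 CPM with siNC to 73.5 and 73.3 with siMePCE. In AsiSI, HUS1 went from 69.9 and 68.0 CPM to 86.0 and 81.2. In order of level the groups were Flp-In siNC, AsiSI siNC, Flp-In siMePCE and AsiSI siMePCE, and no neighbouring groups overlapped. HUS1 rose in Flp-In (0.83, SE 0.0911, edgeR adjusted p = 3.34e-07) and in AsiSI (0.28, SE 0.0895, adjusted p = 0.018). The rise in AsiSI lost its call without AsiSI siNC replicate 1 (adjusted p = 0.0602), AsiSI siNC replicate 2 (0.0628) or AsiSI siMePCE replicate 1 (0.134), and with no filter on low counts (0.0609). No gene that overlaps HUS1 had more than 0.036 times its counts.

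With siNC, RAD9A measured 36.4 and 38.2 CPM (Flp-In) and 33.2 and 28.7 CPM (AsiSI). With siMePCE it measured 25.5 and 24.5 CPM (Flp-In) and 26.5 and 21.7 CPM (AsiSI), and the groups were apart in each line. RAD9A fell in Flp-In (-0.58, SE 0.119, edgeR adjusted p = 0.000509) and in AsiSI (-0.36, SE 0.119, adjusted p = 0.0212). The row spans 80.5 kb and contains the opposite-strand genes POLD4, CLCF1 and ENSG00000256514, with 0.109, 0.428 and 0.545 times the counts of RAD9A. PPP1CA, with 2.302 times its counts, shares 230 bases with the row. PPP1CA counts went from 3107 and 3078 to 2809 and 2575 with knockdown in Flp-In and from 3911 and 4555 to 2380 and 2542 in AsiSI, and its part in the RAD9A value was not tested. With the counts of ENSG00000256514 taken away, the value stayed at -0.59 in Flp-In (adjusted p = 0.00262) and was -0.35 without a call in AsiSI (adjusted p = 0.0717). The AsiSI call was also lost without AsiSI siNC replicate 1 (adjusted p = 0.191), without AsiSI siMePCE replicate 2 (0.232), in a fit of the 4 AsiSI libraries alone (0.0529) and among rows with a mean CPM of at least 1 (-0.23, 0.0803). Upper quartile scaling gave -0.15 there (adjusted p = 0.286).

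RAD1, the clamp's remaining gene, which was not among the 10, measured 46.0 to 54.3 CPM over the 8 libraries, with log2 fold changes of 0.13 in Flp-In and -0.10 in AsiSI (edgeR adjusted p = 0.289 and 0.449). Its overlapping gene had 0.955 times its counts. Per kb of span, HUS1 went from 0.626 and 0.723 times RAD1 to 1.05 and 1.13 times with knockdown in Flp-In, and from 1.03 and 1.10 times to 1.39 and 1.37 times in AsiSI. Against RAD9A it went from 4.96 and 5.12 to 13.1 and 13.6 in Flp-In, and from 9.56 and 10.8 to 14.7 and 17.0 in AsiSI. Both ratios were lowest in the Flp-In siNC libraries and highest in the AsiSI siMePCE libraries. Dividing by span sets the size of a ratio and not its course over the libraries. The RAD9A row, however, takes in counts of ENSG00000256514, at 0.545 times its own. With these taken away, RAD9A in AsiSI against Flp-In under siNC went from -0.27 to -0.74. The course of the HUS1 to RAD9A ratio therefore depends on which overlapping counts the row holds.

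**Figure D3:**
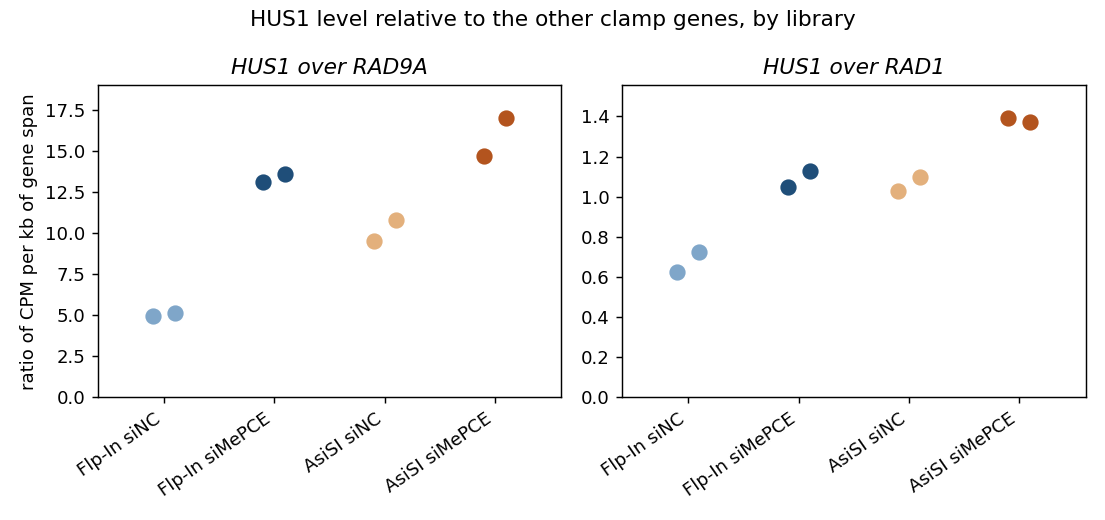
Ratio of HUS1 to RAD9A (left) and to RAD1 (right), each as CPM per kb of gene span, in the 4 groups; points are libraries and the axes start at 0. The HUS1 to RAD1 ratio was 0.626 and 0.723 in Flp-In siNC and between 1.03 and 1.39 in the other 6 libraries.

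RAD17, the subunit that loads the clamp, did not pass after siMePCE, with log2 fold changes of -0.04 in Flp-In (SE 0.101, edgeR adjusted p = 0.805) and -0.20 in AsiSI (SE 0.0999, adjusted p = 0.12). Under upper quartile scaling RAD17 was called higher in Flp-In, at 0.23 (adjusted p = 0.0391). Flp-In levels were 42.1 and 40.0 CPM with siNC, then 40.4 and 39.8 with siMePCE. AsiSI levels were 57.8 and 54.7 CPM, then 52.5 and 45.3, so every AsiSI library lay above every Flp-In library.

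CLSPN, the adaptor that presents CHEK1 to ATR, went from 99.4 and 98.4 CPM with siNC to 89.4 and 77.6 with siMePCE in Flp-In. The AsiSI libraries went from 100.0 and 91.9 CPM to 68.9 and 55.1. The groups were apart in each line. CLSPN fell in AsiSI (-0.63, SE 0.105, edgeR adjusted p = 5.83e-05), and this call held in each of the 17 alternatives tried, from -0.81 to -0.42. In Flp-In the value was -0.24 (SE 0.104, adjusted p = 0.0674; 0.02 under upper quartile scaling), which passed in 7 of 17 alternatives, among them the fit of the 4 Flp-In libraries alone (-0.23, adjusted p = 0.00979) and the fit without Flp-In siMePCE replicate 1 (-0.36, adjusted p = 0.0356). The difference between the lines was not called (-0.39, SE 0.147, adjusted p = 0.158), but passed without AsiSI siMePCE replicate 1 (adjusted p = 0.0386) and under upper quartile scaling (0.0487).

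CHEK1, the main effector kinase of ATR, measured 51.3 and 46.4 CPM with siNC and 57.5 and 49.1 with siMePCE in Flp-In, which overlap. The AsiSI libraries went from 48.6 and 41.9 CPM to 40.9 and 32.7, apart by less than the spread within either group. The log2 fold changes were 0.13 (SE 0.118, edgeR adjusted p = 0.414) and -0.30 (SE 0.119, adjusted p = 0.0547). The AsiSI value passed in 5 of 17 alternatives, among them those without AsiSI siNC replicate 2 (-0.40, adjusted p = 0.0254), AsiSI siMePCE replicate 1 (-0.48, 0.00887) or Flp-In siMePCE replicate 2 (-0.31, 0.0478), and with no filter on low counts (-0.32, 0.0192). Upper quartile scaling gave 0.39 in Flp-In (adjusted p = 0.00556). STT3A, with 1.96 times the counts of CHEK1, shares only 53 bases with it.

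CHEK2, the ATM-branch kinase, measured 18.1 and 19.0 CPM with siNC and 18.6 and 19.8 with siMePCE in Flp-In. The AsiSI libraries went from 19.7 and 18.1 CPM to 15.0 and 11.7. The AsiSI siMePCE libraries lay below the other 6. CHEK2 fell in AsiSI (-0.50, SE 0.134, edgeR adjusted p = 0.00519), a call lost without AsiSI siMePCE replicate 2 (-0.34, adjusted p = 0.0956) and under upper quartile scaling (-0.29, 0.0725). In Flp-In the value was 0.05 (SE 0.133, adjusted p = 0.787), and 0.32 with a call under upper quartile scaling (0.045). The difference between the lines, -0.55 (SE 0.189, adjusted p = 0.11), was not called, but passed without AsiSI siMePCE replicate 1 (-0.75, adjusted p = 0.0333). CHEK2 has partial copies elsewhere in the genome. The 8 rows named for them had at most 14 counts in a library, but how reads that fit several places were counted is not given in the sources used here. HSCB, divergent from CHEK2, shares 384 bases and had 0.529 times its counts. HSCB counts went from 408 and 436 to 364 and 368 with knockdown in Flp-In. In AsiSI they went from 611 and 678 to 324 and 265, and the part of HSCB in the CHEK2 value was not tested.

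WEE1, the kinase that restrains entry into mitosis, measured 64.6 and 65.1 CPM (Flp-In) and 62.7 and 54.8 CPM (AsiSI) with siNC. With siMePCE it measured 74.6 and 60.4 CPM (Flp-In) and 61.0 and 52.6 CPM (AsiSI). The groups overlapped in each line. Its log2 fold changes were 0.06 (SE 0.11, edgeR adjusted p = 0.708) and -0.05 (SE 0.11, adjusted p = 0.765), and the genes inside its row, ENSG00000238387 and ENSG00000243869, each had 0.007 times its counts. Upper quartile scaling gave 0.32 in Flp-In, which was called (adjusted p = 0.0109), and 0.16 in AsiSI.

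Averaged over the lines, HUS1 rose (0.55, SE 0.0638, edgeR adjusted p = 3e-07) and CLSPN, RAD9A, ATRIP and ATR fell, with log2 fold changes of -0.44, -0.47, -0.55 and -0.29. The background was 25.2% of rows called higher and 27.2% lower. Of 17341 protein-coding rows, 4240 were called higher and 7060 lower. CHEK2 had -0.23 (adjusted p = 0.0501), and WEE1 0.00 (SE 0.0778, adjusted p = 0.968). Upper quartile scaling gave 2 higher and 3 lower, with WEE1 at 0.24 called and ATR at -0.05 not called (adjusted p = 0.515).

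The knockdown effects in the 2 lines were tested against each other, as AsiSI minus Flp-In. HUS1 was the gene called among the 10, with a smaller rise in AsiSI (-0.55, SE 0.127, edgeR adjusted p = 0.0167), where 1.66% of all rows were called lower. None of the 10 was called higher by edgeR or DESeq2 (0 at an unadjusted p under 0.05), where 2.51% of rows were. The HUS1 call was lost when Flp-In siNC replicate 1, AsiSI siMePCE replicate 2 or Flp-In siMePCE replicate 1 was left out. The HUS1 value lay between -0.61 and -0.49 in all 16 alternatives. Under siNC, HUS1 was 1.66-fold higher in AsiSI than in Flp-In. This line value, the rise in Flp-In and the difference all use the same 2 Flp-In siNC libraries, so they are not separate evidence. CHEK2, CHEK1, CLSPN and ATR had -0.55, -0.42, -0.39 and -0.34, each with an adjusted p of at least 0.11.

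Under siNC the 2 lines were compared without knockdown. HUS1 was 1.66-fold higher in AsiSI (0.73, SE 0.091, edgeR adjusted p = 2.4e-06) and RAD17 1.37-fold higher (0.45, SE 0.1, adjusted p = 0.00151), where 14.4% of rows were called higher. Both calls held in each of the 17 alternatives tried. The divergent genes AK6 and TAF9 share 721 bases with the RAD17 row and had 2.13 and 1.72 times its counts. With siNC, AK6 had 3300 and 3295 counts (Flp-In) and 5967 and 6433 counts (AsiSI), and its part in the RAD17 value was not tested. By edgeR and by DESeq2 0 of 10 were called lower, where 15.1% of rows were, and 2 had an unadjusted p under 0.05, TOPBP1 (-0.23, adjusted p = 0.0607) and RAD9A (-0.27, adjusted p = 0.0917). With the counts of ENSG00000256514 taken away, RAD9A was lower in AsiSI (-0.74, adjusted p = 0.000551). With siNC, ENSG00000256514 itself had 779 and 721 counts (Flp-In) and 958 and 964 counts (AsiSI). The other 6 genes had log2 values between -0.16 and 0.03.

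Around these genes, 5 lists of checkpoint genes were counted, chosen with earlier results of these data known. Their counts stand beside 22.7% of all rows called lower in Flp-In and 21.3% in AsiSI, and beside 5925 and 6062 lower and 3543 and 2924 higher of 17341 protein-coding rows. No list was tested against these shares. Of 9 genes of mitotic entry on which the pathway acts, all 9 fell in each line, with medians of -0.89 in Flp-In and -1.07 in AsiSI. PKMYT1, a kinase related to WEE1, had log2 fold changes of -2.04 and -2.29 in Flp-In and AsiSI, and CDC25B, a phosphatase that activates cyclin-dependent kinases, -1.90 in each. CCNB1 and CCNA2, the mitotic cyclins, had -1.14 and -0.81 in Flp-In and -1.09 and -1.07 in AsiSI. Overlapping genes held 0.45 and 0.731 times the counts of PKMYT1 and CCNA2. For CDC25A, CDC25C and CDK2, also among the 9, they held 0.522, 2.21 and 1.02 times the counts. The part of these overlaps in the falls was not tested. Under upper quartile scaling 7 of 9 were lower in Flp-In and 9 of 9 in AsiSI. WEE1, in the same libraries, lay between -0.12 and 0.32 in every alternative in Flp-In and between -0.17 and 0.16 in AsiSI.

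Of 10 further genes of the clamp, its loaders and RPA, 4 fell in Flp-In and 5 in AsiSI. RFC3, a loader subunit, had -0.96 and -0.77, RFC2 -0.56 and -0.85, and RFC5 -0.31 and -0.39. RHNO1, which binds the clamp, had -0.77 and -1.04, with an overlapping gene at 3.94 times its counts. Of 8 fork protection and mediator genes 4 fell in Flp-In and 7 in AsiSI (6 with DESeq2 size factors). TIMELESS, which travels with the fork and aids claspin, had -1.34 and -1.66, and WDHD1 had -0.39 and -0.69. DNA2, a nuclease, had -0.50 and -0.55, and SMARCAL1, a fork remodeller, -0.43 and -0.28. A gene overlapping SMARCAL1 had 0.751 times its counts. Under upper quartile scaling 2 of the clamp list were higher and 3 lower in Flp-In and 3 lower in AsiSI. For the fork list it gave 2 higher and 1 lower in Flp-In and 3 lower in AsiSI.

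Of 8 genes of the ATM branch and of the assembly of ATM and ATR, 5 fell in Flp-In and 7 in AsiSI (2 higher and 1 lower, and 4 lower, under upper quartile scaling). H2AX, the histone phosphorylated at breaks, had -1.62 and -1.56, and ATM, the break kinase, -0.29 and -0.72. RAD50, of the break-sensing complex, had -0.46 and -0.41. TELO2, a chaperone of ATM and ATR, had -0.69 and -1.22. Of 9 phosphatase and turnover genes 3 rose and 3 fell in Flp-In, and 3 rose and 4 fell in AsiSI. PPM1D, a phosphatase that ends the checkpoint, rose by 0.33 and 0.45, PPP2CA by 0.68 and 0.36, and BTRC, which targets claspin and WEE1 for destruction, by 0.71 and 0.40. CUL4A had -0.26 and -0.61. Under upper quartile scaling 5 were higher and none of 9 lower in Flp-In, and 3 were higher and 2 lower in AsiSI. Overlapping genes held 1.5, 1.34, 1.65 and 0.788 times the counts of TELO2, RAD50, PPP2CA and CUL4A.

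**Figure D4:**
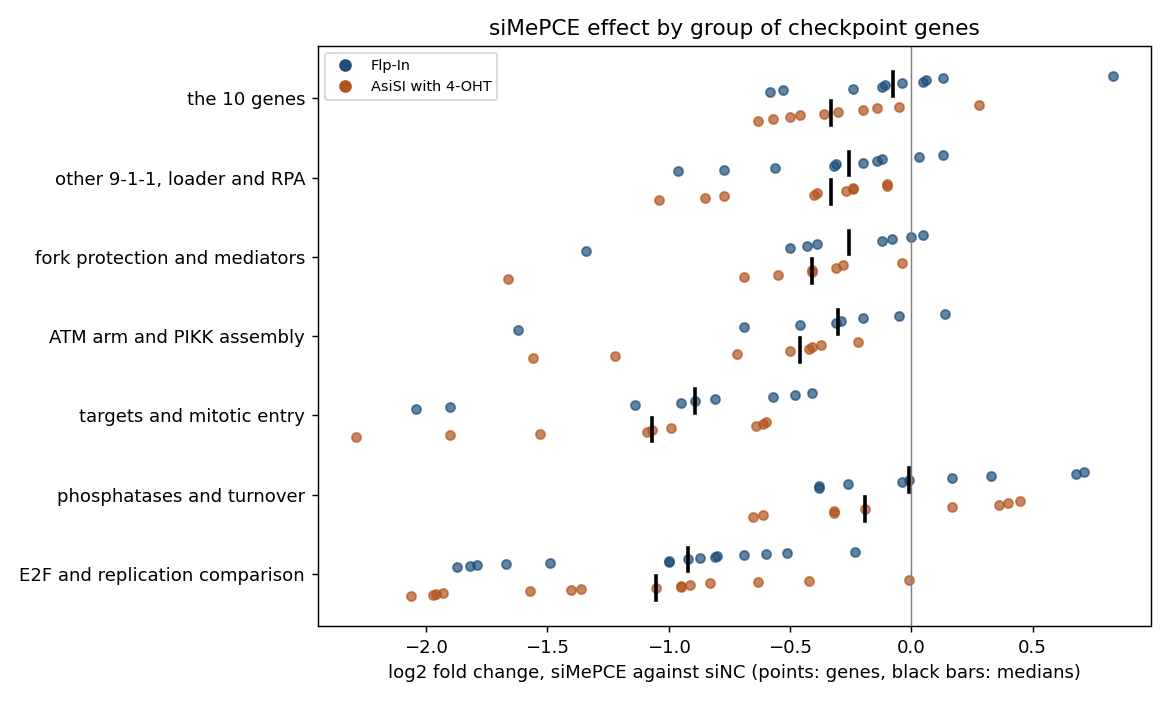
Log2 fold change after siMePCE (horizontal axis) for the 10 genes, 5 lists of other checkpoint genes and a comparison list of E2F and replication genes (vertical axis); points are genes, colours are lines and black bars are medians. The genes of mitotic entry lie left of 0 in both lines, with medians of -0.89 and -1.07, and the 10 genes have medians of -0.07 and -0.33.

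Cell cycle genes moved in the same libraries. Of 15 E2F and replication genes, 15 fell in Flp-In (14 with DESeq2 size factors, 13 under upper quartile scaling) and 14 in AsiSI (12 lower and 1 higher under upper quartile scaling), with medians of -0.92 and -1.05. CLSPN and CHEK1 are known to be expressed most in dividing cells, and the part of cell cycle state in the values of the 10 genes was not tested. In bulk RNA a different share of cells in a phase and less RNA per cell cannot be told apart.

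The genes most like the 4 kinases over the 8 libraries were looked up among 13487 genes by Pearson r of log2(CPM + 1). For ATR they were HCFC2, ENOPH1 and TDRD3 (r = 0.980, 0.977 and 0.975). For CHEK1 they were TUBGCP3, QRICH1 and DNAAF2 (0.981, 0.976 and 0.975), and for CHEK2 ZBTB8OS, LINC00624 and TOP3A (0.968, 0.965 and 0.963). For WEE1 they were TATDN3, SS18L1 and PMCH (0.965, 0.960 and 0.954). HUS1 was added after its values were seen, and CDH11, RCL1 and UCHL3 were most like it, each with r = 0.995. CDH11, a cadherin, ran from 4.71 to 29.6 CPM. None of these 15 genes was in the lists above. The values describe 8 libraries in 4 groups, so they largely repeat the order of 4 group means.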

How the data were processed

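Total RNA of 8 libraries was analysed from the table of raw counts that the authors deposited. Libraries were directional and depleted of ribosomal RNA, per the labels' protocols. Per the submitters' processing notes, Trim Galore, FastQC, STAR, SAMtools and featureCounts were used with build hg19; versions and settings are not given in the sources used here. Counts are per gene interval, not normalized, and all 8 count columns were used. Symbols were joined by gene identifier and matched 10 of 10 genes.

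Rows were kept with filterByExpr by group (43321 of 80311), TMM-scaled and modelled in edgeR 4.0.16 (R 4.3.3) with 1 mean for each of the 4 groups. A trial on simulated counts covered only the knockdown effect in each line and the average. It used 1 spread for all rows and another count filter, so it does not bear on the difference or the line comparison. A standard error is the size of a log2 fold change divided by the square root of F. A row was called at an adjusted p under 0.05. Replicates differed beyond counting noise (chi-square per degree of freedom 4.51 to 11.29), so none was a copy. Fits tried as alternatives were DESeq2 size factors, upper quartile scaling, removal of mitochondrial, 7SK, 7SL and ribosomal RNA rows, no count filter, a mean CPM filter, a replicate block, DESeq2 1.42.0, the 4 libraries compared alone, and leaving out each library. Taking away the counts of the largest row inside a gene was added after seeing the data.

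The 10 genes and all lists were chosen with earlier results of these data known. Named were the 10 genes, MEPCE, up to 4 genes a checkpoint list by adjusted p in the average, markers, overlapping genes and the 3 genes most like each of ATR, CHEK1, CHEK2 and WEE1. RAD1 was named as the clamp's remaining gene after its values were seen.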

Additional observations from a re-analysis of the deposited data

Results flagged for a closer look

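HUS1 stood out because the effect of siMePCE on it differed between the lines by the test of the difference itself. The log2 difference, AsiSI minus Flp-In, was -0.55 (SE 0.127, edgeR adjusted p = 0.0167). In Flp-In, HUS1 rose from 41.4 ± 2.34 to 73.4 ± 0.203 CPM, and AsiSI levels rose from 68.9 ± 1.37 to 83.6 ± 3.41 CPM (SD, n = 2). Leaving out Flp-In siNC replicate 1, AsiSI siMePCE replicate 2 or Flp-In siMePCE replicate 1 ended the call (adjusted p = 0.146, 0.0567 and 0.0618). Line, 4-OHT and selection drug cannot be told apart here.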

How the results depend on the processing

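Of the comparisons of single genes, 402 kept their side of the threshold under another setting (19 gained a call, 8 lost one and 1 turned to a call in the other direction), and 373 did when a library was left out (16 gained and 11 lost a call). Some uncalled values changed sign, among them, under upper quartile scaling, ATR (0.15) and TOPBP1 (0.16) in Flp-In and TOPBP1 (0.08), RAD17 (0.01) and WEE1 (0.16) in AsiSI. Upper quartile scaling gave 5 genes higher and 1 lower in Flp-In, 3 lower in AsiSI, 2 higher in the average and 2 lower in the difference, and turned RAD17 in Flp-In to 0.23. It also called 12725 rows higher and 6590 lower in Flp-In (main 7844 and 9846), 10960 and 6429 in AsiSI (7262 and 9234), 16220 and 8170 in the average (10921 and 11803), and 994 and 1388 in the difference (1088 and 720); the construction of this scaling moves all rows together. Without a count filter 0 genes were higher in AsiSI (1 at an unadjusted p under 0.05 in edgeR with the filter, and 1 by DESeq2). Under siNC, 1 gene was lower in AsiSI at a mean CPM of at least 1 and 1 with nested counts taken away. The replicate block gave 3 genes with a lower effect in AsiSI (HUS1, CLSPN and CHEK1) and 2 lower in AsiSI under siNC (TOPBP1 and RAD9A), and 2912 rows with a difference in place of 1808. With the block 8 results for single genes gained a call, among them CHEK1 in AsiSI (adjusted p = 0.00869) and CLSPN in Flp-In (0.0167). Deviations of same-numbered libraries correlated at r = 0.072 in Flp-In and 0.223 in AsiSI across 26439 rows, and over all 6 pairs of groups at 0.041 to 0.239, with 4 above 0.1. The labels do not say that a number marks a shared culture or day, so the block is given as an alternative. Leaving out each library gave 1 to 3 genes lower in Flp-In, 0 to 1 higher and 2 to 7 lower in AsiSI, 4 to 7 lower in the average, 0 to 3 lower in the difference, and 0 to 1 lower in AsiSI under siNC. Of the Flp-In libraries, leaving out siNC replicate 1 or 2 brought the rows with a difference to 658 or 993, and siMePCE replicate 1 or 2 to 921 or 1182. The cause of these changes was not tested. With 2 libraries a group, small changes can be missed.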
